A study of Mus musculus with 12 samples.

Results

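The BCL2 family decides whether mitochondria release the proteins that start apoptosis, and 10 of its genes were followed in mouse LSK cells. These bone marrow cells lack lineage markers, carry Sca-1 and KIT, and include hematopoietic stem cells and multipotent progenitors. The 10 genes were chosen by name: the pro-survival genes Bcl2, Bcl2l1 and Mcl1, the effector genes Bax and Bak1, and the BH3-only genes Bcl2l11, Bbc3, Pmaip1, Bid and Bad. All 10 were found among the 35999 genes of the table. RNA came from cells sorted from untreated bone marrow, as far as the labels tell, in 12 libraries. The labels put 6 of them under WT and 6 under Fancg KO (Fancg-/- mice). FANCG is a subunit of the Fanconi anemia core complex, which acts in the repair of DNA interstrand crosslinks. Age, sex and littermate status of the mice were not given in the sources used here.

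Pro-survival members of the family hold the effectors BAX and BAK1 in check. When the effectors are set free, they form pores in the outer mitochondrial membrane, and cytochrome c leaves through them to switch on caspases. BH3-only members act upstream, either by binding the pro-survival members or by touching the effectors directly, and several genes of the family are known targets of p53 (Bax, Bbc3, Pmaip1) or of FOXO factors (Bcl2l11, Bbc3). In hematopoietic stem cells, Mcl1 is known to be required for survival. Much of the family is controlled at the protein level, which RNA does not show.

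The question was whether the libraries labelled KO differed from those labelled WT in any of these genes, or in the balance between survival and death genes. Values are the authors' normalized estimated read counts, called signal here, and differences are between group means of log2(signal + 1), KO minus WT. Library depth was approximately 1235109 to 2471417 reads, judged from the spacing of low values, and 1 read was worth a signal of 0.677 to 1.61. The test took in every gene whose signal averaged 10 or more, that is 8887 genes and 6 of the 10 members (Bcl2, Bcl2l1, Mcl1, Bax, Bak1 and Bcl2l11). Fancg itself ran from 4.76 to 24.1 in the WT libraries and from 4.46 to 14.5 in the KO libraries and did not separate the labels (two-sided exact permutation test, p = 0.636), so each direction below is one between labels. Zmat3, a p53 target gene that the study singled out in these same libraries and that is therefore no independent check of them, did separate them, at 6.92 to 13.02 for WT and 14.9 to 30.2 for KO (exact permutation p = 0.0022, two-sided, which is the least this design can give; limma adjusted p = 0.9996). Kit reached between 302 and 392 in the WT and between 283 and 435 in the KO libraries, while Ly6a, the Sca-1 gene, was low throughout, from 4.84 to 17.4. The summed signal of 6 B cell markers was at most 24.1, that of 7 erythroid markers at most 31.8 and that of 6 T and NK cell markers at most 81.5. The 8 granulocyte and monocyte markers summed to 347 to 1999 for WT and 470 to 2190 for KO, mostly from Mpo, and Ly6g, a neutrophil marker, was listed at 0 in every library. The 5 megakaryocyte markers summed to 15.8 to 56.1 for WT and 24.6 to 87.3 for KO. Of 11 LSK markers tested, 5 were higher and 6 lower on average in KO. An unadjusted limma p under 0.05 was found for 1 of them, against 3.67% of all genes tested. This one, Flt3 of multipotent progenitors, had a log2 difference of -0.51 (limma, unadjusted p = 0.0423). Itga2b of megakaryocytes and stem cells, the only 1 of the 5 megakaryocyte markers past the filter, had one of 0.72 (limma, unadjusted p = 0.00597). Each had an adjusted p of 0.9996. In sorted bulk cells, fewer cells of a type and less RNA per cell cannot be told apart, and the part of these 2 markers in the values of the BCL2 family was not tested.

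Short promoter stretches were searched for motifs of the regulators named above, and each match is given with the motif in capitals. Of the 10 members, Pmaip1 had no RefSeq promoter here and was not searched. The other 9 had 15 windows in all (GRCm38.p6, 250 bases before to 50 bases after a start). The p53 half-site was found in 1 of them, that of Bax, and in 8.36% of all 32851 promoters of this length. The longer p53 site, a pair of half-sites up to 13 bases apart, was found in 0 of the 15 and in 0.0731% of all promoters. The FOXO motif GTAAACA, searched on both strands, was found in 2 of the 15, of Bcl2l11 and Bbc3, and in 3.65% of all promoters. The motifs do not overlap one another in these stretches.
Bax, p53 half-site, minus strand, chr7:45467080-45467109: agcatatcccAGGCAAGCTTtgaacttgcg
Bcl2l11, FOXO motif, plus strand, chr2:128125800-128125829: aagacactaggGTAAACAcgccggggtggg
Bbc3, FOXO motif on the opposite strand, shown along the plus strand, chr7:16310083-16310112: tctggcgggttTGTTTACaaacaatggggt
A match is a description of the letters and not evidence of binding.

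Per length, the pro-survival genes Mcl1 and Bcl2 stood at the top of the family in LSK cells and the BH3-only genes Bbc3 and Pmaip1 at the bottom. Signal was divided by the median length of the coding transcripts of each gene in GENCODE. In the WT libraries, signal per kilobase was 77.5 ± 24.5 (SD, n = 6) for Mcl1, 50.8 ± 6.80 (SD, n = 6) for Bcl2 and 27.4 ± 8.06 (SD, n = 6) for Bak1. Next came Bcl2l11, Bax (13.8 ± 4.12), Bad, Bcl2l1 (9.03 ± 2.27) and Bid (7.01 ± 2.23; SD, n = 6 each). Bbc3 had 4.57 ± 3.83 (SD, n = 6), and Pmaip1 was lowest. In the KO libraries the first 3 places were the same, and Bax (20.9 ± 6.84) stood before Bcl2l11 (15.9 ± 7.96; SD, n = 6 each). The step from Bcl2 to Bak1 was seen in 12 of 12 libraries, and Mcl1 was above Bcl2 in 10 of 12. Lower down the order was loose. Bcl2l11 exceeded Bax in 7 of 12 libraries, Bad exceeded Bcl2l1 in 5 of 12 and Bid exceeded Bbc3 in 7 of 12, so these neighbours did not differ beyond their spread. With the longest coding transcript in place of the median, the first 8 places stayed as they were and Bbc3 and Pmaip1 changed places.

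**Figure D1:**
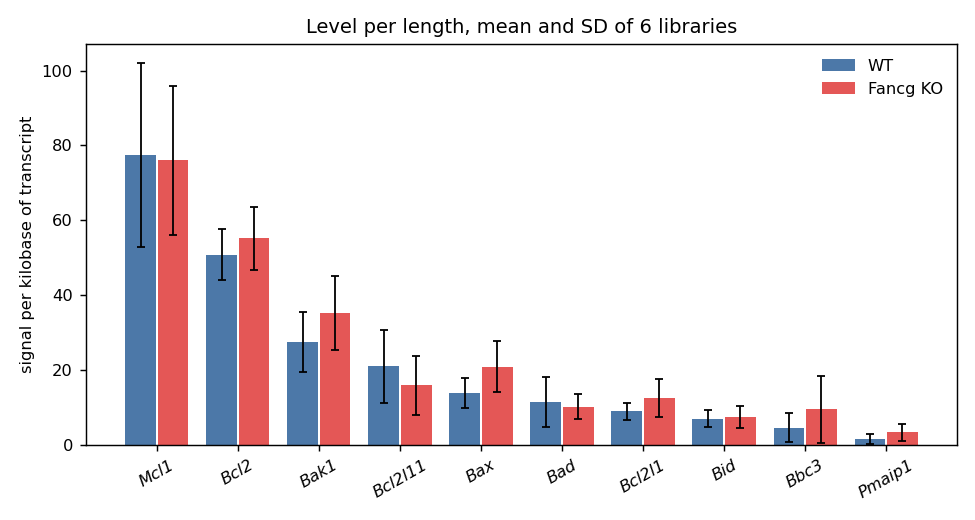
Signal per kilobase of transcript for the 10 BCL2 family genes, ordered by the mean over the 12 libraries. Bars are means and error bars SD of 6 libraries per genotype label. Mcl1 and Bcl2 exceed 50 in both labels, and Pmaip1 is lowest in both.

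The 3 pro-survival genes showed no difference between the labels that passed a test. Bcl2 (chromosome 1, 106538178 to 106714274, minus strand; GRCm38 here and for the other genes) encodes the founding survival protein of the family. Its signal was lowest at 212, median 258 and highest at 307 in the WT libraries, and 210, 299 and 310 in the KO libraries. The groups covered nearly the same range, though 4 of 6 KO libraries lay above the WT median. Means of 255 ± 34.1 and 277 ± 42.1 (SD, n = 6 each) gave a log2 difference of 0.12 (standard error 0.14, 95% interval -0.18 to 0.42, limma adjusted p = 0.9996). Bcl2 was also the steadiest member, with a coefficient of variation of 14.4% over the 12 libraries and a highest value 1.47 times the lowest. In annotation, 6.03% of its 31-base stretches lie antisense to other genes, chiefly D630008O14Rik.

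Mcl1 (chromosome 3, 95658788 to 95663176, plus strand) encodes a short-lived survival protein that binds BAK1 and BH3-only proteins. Its signal ran from 105 to 230 with a median of 164 in the WT libraries and from 103 to 224 with a median of 159 in the KO libraries. The means were 166 ± 52.4 and 162 ± 42.4 (SD, n = 6 each), and the ranges coincided. The log2 difference of -0.0081 had a 95% interval from -0.49 to 0.47 (limma, adjusted p = 0.9996), and its sign changed with the scaling of the libraries.

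Bcl2l1 (chromosome 2, 152780668 to 152831728, minus strand) encodes the survival protein BCL-xL. Its signal was lowest at 9.39, median 14.5 and highest at 19.4 for WT, against 9.47, 20.2 and 30.5 for KO. The highest 4 KO libraries lay above every WT library, while KO replicates 3 and 5 lay within the WT range. On average Bcl2l1 was 0.39 higher on the log2 scale in KO (standard error 0.28, 95% interval -0.21 to 0.99, limma adjusted p = 0.9996; two-sided exact permutation test, p = 0.188). It rested on few reads, approximately 7.48 to 27.1 per library. Without KO replicate 5 the difference was 0.58, with an unadjusted limma p of 0.0416 and an adjusted one of 0.999. Leaving out each library in turn gave differences of 0.26 to 0.58 and unadjusted limma p-values of 0.0416 to 0.377.

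Both effector genes were higher on average in the libraries labelled KO, and neither passed the test. Bax (chromosome 7, 45461697 to 45466898, minus strand) encodes an effector that moves from the cytosol to mitochondria. Its signal was lowest at 7.68, median 10.8 and highest at 16.1 in the WT libraries and 10.04, 16.5 and 25.1 in the KO libraries. The groups overlapped, with 3 KO libraries above every WT library and 5 of 6 above the WT median. The means were 11.1 ± 3.30 and 16.8 ± 5.48 (SD, n = 6 each), a ratio of 1.51. The log2 difference was 0.54 (standard error 0.27, 95% interval -0.028 to 1.11, limma p = 0.0610, adjusted p = 0.9996; two-sided exact permutation test, p = 0.0584). Bax had the smallest p of the family and stood at rank 396 of the 8887 genes. Its unadjusted limma p crossed 0.05 when 1 of 3 libraries was left out. It was 0.0328 without WT replicate 3, 0.0452 without KO replicate 2 and 0.0251 without KO replicate 6, with an adjusted p of 0.997 or more. Without any other single library it did not cross, and it rose to 0.151 without KO replicate 5, where the difference was 0.42. Between 6.20 and 30.1 reads per library lay behind these values. Of the 31-base stretches of Bax, 11.1% also occur in other genes, chiefly the overlapping Gm45808. The signal of Gm45808 was 0 in every WT library and 0 to 2.84 in the KO libraries, a log2 difference of 0.42. Its part in the values of Bax was not tested.

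Bak1 (chromosome 17, 27019810 to 27029009, minus strand) encodes the effector that sits on mitochondria from the start. Its signal ran from 26.1 to 60.6 with a median of 45.1 for WT and from 41.0 to 85.4 with a median of 56.3 for KO. Here 3 KO libraries exceeded every WT library and none fell below the WT range. Means of 45.1 ± 13.3 and 57.8 ± 16.3 (SD, n = 6 each) differed by 0.36 on the log2 scale (standard error 0.23, 95% interval -0.12 to 0.84, limma adjusted p = 0.9996; two-sided exact permutation test, p = 0.162). In annotation, 20.4% of the 31-base stretches of Bak1 lie antisense to Ggnbp1. Strand use in the authors' quantification was not given in the sources used here, so reads of this pair may have been shared. Ggnbp1 had a signal of at most 22.5 and a log2 difference of -0.26, and its part in the values of Bak1 was not tested.

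**Figure D2:**
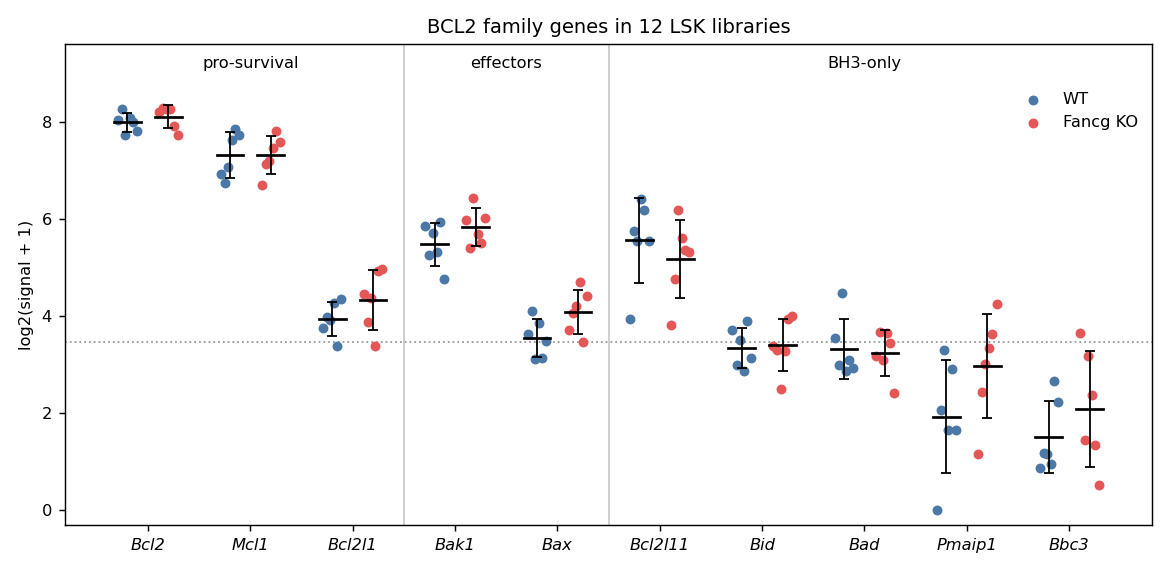
Signal of each of the 10 genes on a log2(signal + 1) scale, 1 point per library, with the mean and SD of 6 libraries per label. The dotted line marks a signal of 10. Points of both labels overlap for every gene, and Bax and Bak1 each have 3 KO libraries above the highest WT library.

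Of the BH3-only genes, Bcl2l11 was the most abundant and lower on average in the KO libraries, while the rarer Pmaip1 and Bbc3 were higher on average, all within the spread. Bcl2l11 (chromosome 2, 128126038 to 128162547, plus strand) encodes BIM, which can bind all pro-survival members and is known to be induced on cytokine withdrawal. Its signal was lowest at 14.2, median 49.1 and highest at 83.8 in the WT libraries and 13.1, 39.3 and 71.3 in the KO libraries. In 5 of 6 KO libraries it lay below the WT median. Its log2 difference of -0.39 (standard error 0.41, 95% interval -1.26 to 0.48) did not pass (limma adjusted p = 0.9996; two-sided exact permutation test, p = 0.426). It varied most among the members past the filter, with the highest library 6.42 times the lowest, and WT replicate 2 and KO replicate 2 were the lowest of their labels. Without WT replicate 2 the difference was -0.71, with an unadjusted limma p of 0.0541, and without KO replicate 2 it was -0.12.

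The other BH3-only genes had a mean signal under 10 and were compared by exact permutation tests of single genes. Pmaip1 (chromosome 18, 66458533 to 66465565, plus strand) encodes NOXA, which binds chiefly MCL1. Its signal was 0 in WT replicate 2, with a WT median of 2.68 and a highest WT value of 8.81, against 1.23 to 18.1 with a median of 8.10 in the KO libraries. In 5 of 6 KO libraries it lay above the WT median and in 3 above every WT library. The log2 difference of 1.04 was the largest of the family and did not pass (two-sided exact permutation test, p = 0.145), and no library held more than approximately 12 reads. The interval from the fit without a filter was wide, from -0.27 to 2.34.

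Bbc3 (chromosome 7, 16308393 to 16318205, plus strand) encodes PUMA, the BH3-only protein most directly tied to p53. Its signal was 0.827 to 5.31 with a median of 1.25 for WT and 0.445 to 11.6 with a median of 2.96 for KO. KO replicates 2 and 4, were above all WT libraries, and KO replicate 7 was below them all. It differed by 0.58 on the log2 scale (95% interval of the fit without a filter -0.61 to 1.77; two-sided exact permutation test, p = 0.327). No library held more than 10.8 reads of it.

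Bid (chromosome 6, 120891930 to 120916853, minus strand), which links death receptors to mitochondria once caspase-8 has cut it, had a signal of 6.31 to 13.9 with a median of 9.02 for WT and 4.68 to 15.03 with a median of 9.16 for KO. Its log2 difference was 0.053 (95% interval of the fit without a filter -0.59 to 0.69; two-sided exact permutation test, p = 0.853). Bad (chromosome 19, 6941861 to 6951899, plus strand), whose protein is held inactive by phosphorylation, had a signal of 6.26 to 21.3 with a median of 7.22 for WT and 4.37 to 11.7 with a median of 8.93 for KO. The difference was -0.074 on the log2 scale (95% interval of the fit without a filter -0.78 to 0.63; two-sided exact permutation test, p = 0.833). The KO range took in all 6 WT libraries for Bid and 5 of 6 for Bad. Bid overlaps Bcl2l13 and Bad overlaps Gpr137 on opposite strands, over 16.9% and 18.4% of their 31-base stretches. Neither pair can be told apart where they overlap if strand was not used. Bcl2l13 had a log2 difference of -0.22. Gpr137 had one of 0.85, with a signal of 6.30 to 10.8 for WT and 6.98 to 30.6 for KO. The part of these 2 genes in the values of Bid and Bad was not tested.

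Over the family, 0 of the 6 members past the filter had an unadjusted limma p under 0.05, where 3.67% of the 8887 genes tested did (1.98% higher and 1.69% lower in KO) and 0 genes had an adjusted p under 0.05. In the fit without a filter, 0 of 10 members did, against 3.88% of 21536 genes. By exact permutation tests, 0 of 10 members had a p under 0.05, against 3.83% of the 8887 genes tested. The 2 label groups overlapped for all 10 members. They did not overlap for 0.09% of the genes tested. Of the 6 tested members, 4 had a higher mean log2 signal in the KO libraries, against 50.7% of all genes tested.

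**Figure D3:**
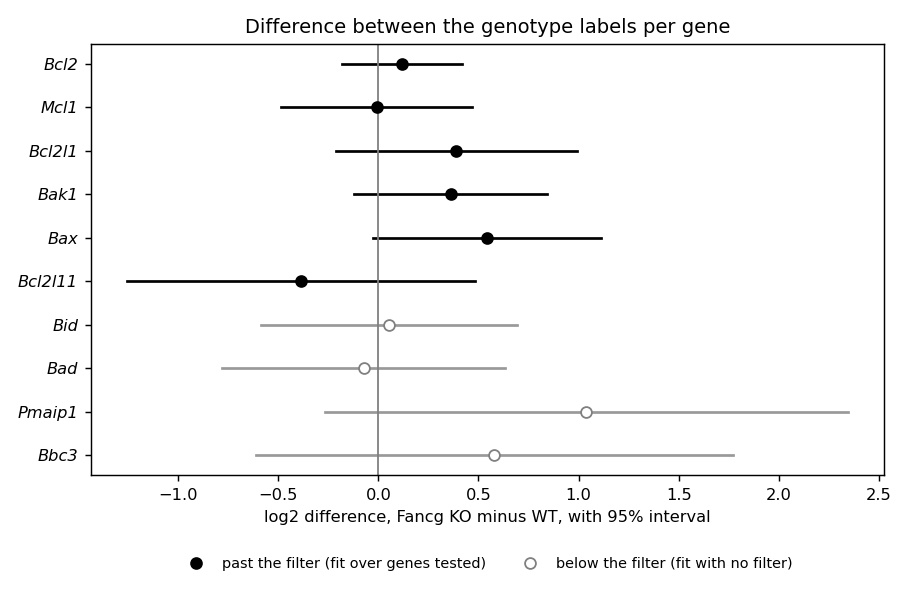
Difference in mean log2(signal + 1), Fancg KO minus WT, with its 95% interval from limma for each gene. Filled points are the 6 genes past the filter and open points the 4 below it, from the fit without a filter. Every interval includes 0. That of Bax starts at -0.028, and those of Pmaip1 and Bbc3 are the widest.

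The balance of survival and death transcripts differed between the labels by less than the spread between libraries. In each library the signal of the 3 pro-survival genes was summed and divided by the sum over the 7 pro-death genes, a description to which no test was applied. The ratio ran from 2.46 to 4.44 with a median of 3.31 in the WT libraries and from 2.33 to 4.23 with a median of 3.34 in the KO libraries. On a log2 scale the balance was 1.72 ± 0.30 for WT and 1.68 ± 0.32 for KO (SD, n = 6 each), a difference of -0.035. Only KO replicate 4, at 1.22, lay outside the WT range. It had the highest pro-death sum of all libraries, 201, to which Bak1 and Bcl2l11 contributed most. Per kilobase of transcript, where Bcl2 with its long transcript weighs less, the log2 balance was 0.66 ± 0.32 for WT and 0.50 ± 0.34 for KO.

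The effectors and the BH3-only genes were also summed apart. The sum of the effectors Bax and Bak1 was 36.2 to 68.4 with a median of 56.0 in the WT libraries and 54.3 to 103 with a median of 74.9 in the KO libraries. Of the KO libraries, 4 of 6 lay above every WT library. The sum of the 5 BH3-only genes was 37.8 to 105 with a median of 78.9 for WT and 43.4 to 98.5 with a median of 76.8 for KO, fully within the WT range. Its lower KO mean came from Bcl2l11, since the other 4 genes summed to 25.5 ± 9.97 for WT and 32.2 ± 4.83 for KO (SD, n = 6 each). All 6 KO sums of these 4 genes lay above the WT median of 21.9 and within the WT range of 15.7 to 41.6. Without Bcl2l11 the difference in log2 balance between the labels was -0.32 in place of -0.035. The log2 ratio of pro-survival genes to effectors was 2.97 ± 0.41 for WT and 2.66 ± 0.39 for KO, and that to BH3-only genes 2.55 ± 0.49 and 2.73 ± 0.39 (SD, n = 6 each). Both pairs of groups overlapped. Among single ratios, signal of Bcl2 over that of Bax ran from 19.0 to 32.6 for WT and from 10.4 to 24.4 for KO, with 3 KO libraries below every WT library. Mcl1 over Bcl2l11 ran from 2.00 to 8.46 for WT and from 2.02 to 7.88 for KO, nearly the same span. Mcl1 over Bak1 ran from 2.12 to 8.08 and from 1.66 to 5.05, with 2 KO libraries below the WT range. Bcl2l1 over Bad ran from 0.664 to 2.93 and from 0.814 to 6.97, with 2 KO libraries above it.

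**Figure D4:**
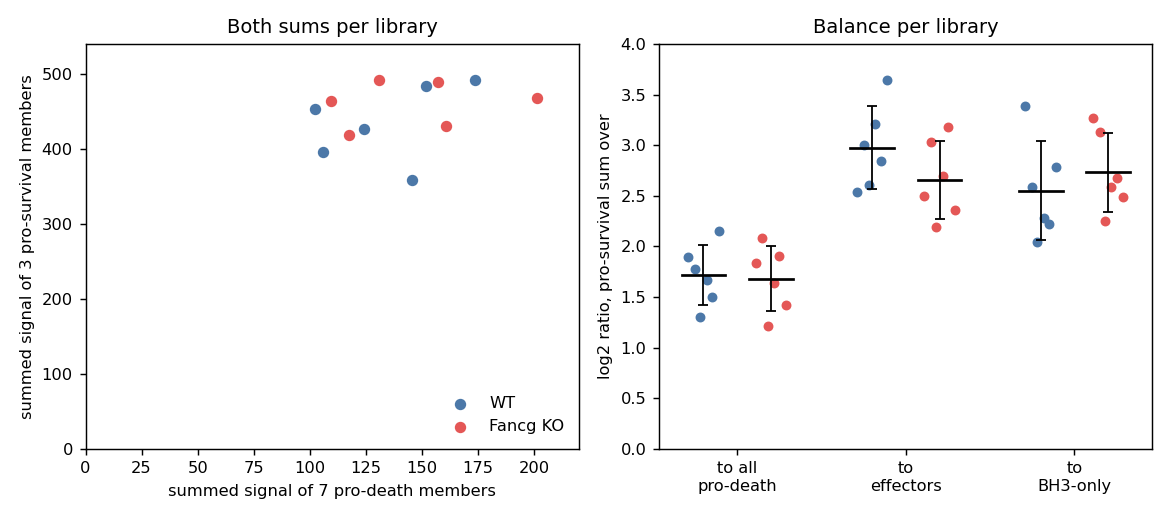
Left, summed signal of the 3 pro-survival genes against that of the 7 pro-death genes, 1 point per library. Right, log2 ratio of the pro-survival sum to all pro-death genes, to the effectors and to the BH3-only genes, with mean and SD of 6 libraries per label. The label means of the first ratio are 1.72 and 1.68, and the labels overlap in all 3 ratios.

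Among the genes that work next to the family, none passed the test used here. Of 16 further relatives of BCL2, 3 passed the filter, Bcl2l12, Bcl2l13 and Bnip3l, with a median log2 difference of -0.22. Bcl2l12 had the largest, -0.33 (limma, unadjusted p = 0.476). Bcl2a1a, Bcl2a1c, Bcl2a1d and Bcl2l10 were listed at 0 in all 12 libraries, and Bcl2l2, which encodes BCL-W, had a signal of at most 4.19. Of 12 genes of the apoptosome and caspases, 11 were tested, 6 higher and 5 lower in the KO libraries with a median of 0.0030. Casp9, the caspase activated on the apoptosome, had a log2 difference of -0.44 (standard error 0.51, unadjusted p = 0.402) and Cycs, which encodes cytochrome c, one of 0.39 (standard error 0.24, unadjusted p = 0.115).
All 5 inhibitors of apoptosis were tested, 3 higher and 2 lower with a median of 0.051, and Birc5, which encodes survivin and also serves in mitosis, had the largest difference at 0.40 (unadjusted p = 0.171). Of 8 death receptor genes, 6 were tested, 5 higher and 1 lower with a median of 0.11. Tnfrsf10b, the TRAIL receptor gene, had the largest at 0.27 (unadjusted p = 0.273), and Fas was listed at 0 in 5 of 12 libraries. Of 15 regulators of BCL2 family genes and proteins, all were tested, 8 higher and 7 lower with a median of 0.031, and Dynll1, a light chain that holds BIM at the cytoskeleton, had the largest at 0.31 (unadjusted p = 0.343). Trp53 had a log2 difference of -0.094 (95% interval -0.44 to 0.25), and Foxo3 one of -0.017 (-0.40 to 0.37). Usp9x, which encodes a deubiquitinase of MCL1, had one of 0.25 (unadjusted p = 0.121). In these 5 lists 0 genes had an unadjusted limma p under 0.05 and 0 an adjusted one, against 3.67% and 0% of all genes tested, whose median difference was 0.0031.

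**Figure D5:**
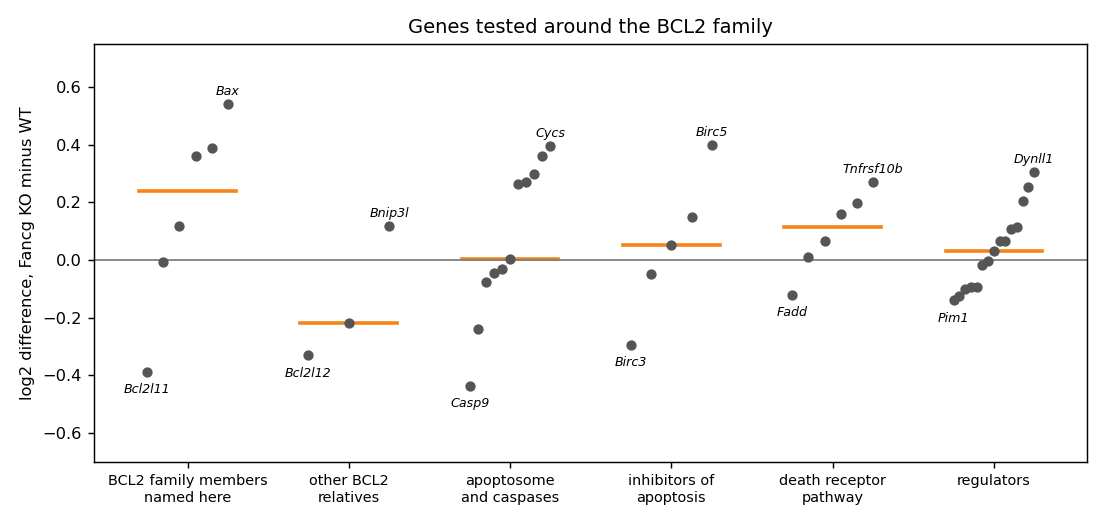
Log2 difference, Fancg KO minus WT, of every tested gene of the BCL2 family and of 5 neighbouring lists, 1 point per gene, with the median of each list as a line and the lowest and highest gene named. Differences lie between -0.44 for Casp9 and 0.54 for Bax.

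Across the 12 libraries, Bcl2 ran most closely with Igkc, the constant region gene of the immunoglobulin kappa chain. Of the other 8886 genes tested, the 3 with the highest Pearson r to Bcl2 on the log2 scale were Igkc (r = 0.97, Spearman rho = 0.96), Zfhx2 (r = 0.91, rho = 0.94) and Rnf217 (r = 0.89, rho = 0.87). Without the 2 libraries farthest from the median of Bcl2, r was 0.94, 0.95 and 0.80. Igkc ran from 0 to 141, a far wider range than that of Bcl2. It was not among the B cell markers summed above, whose sum was at most 24.1. Which cells its RNA came from was not tested. For Bak1, the pro-death gene with the highest mean signal, the closest were Lztfl1 (r = 0.92, rho = 0.86), Mon1a (r = 0.89, rho = 0.93) and Unc13d (r = 0.86, rho = 0.70), with r of 0.79, 0.92 and 0.66 without the 2 libraries farthest from the median of Bak1. These are descriptions over 12 libraries that share their depth and scaling across genes, and the highest values among this many genes are large by selection.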

How the data were processed

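RNA of sorted LSK cells (6 WT and 6 Fancg KO mice) was enriched for mRNA and made into CATS libraries. The signal values the authors deposited were read, from the table's title and its low values, as kallisto estimates of reads that had been divided by a size factor. Mouse genome build, annotation and strand setting were not given in the sources used here. Of 35999 gene names, 35929 were found in GENCODE M21 (GRCm38), the source of positions and transcript lengths.

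Values were used as deposited, with a pseudocount of 1 and a mean signal of at least 10. Whole reads could not be recovered, since 12.6% to 13.3% of values were whole multiples of 1 read (within 0.01), so no count test was run. Labels were compared with limma 3.58.1 (linear model without covariate, trended empirical Bayes; two-sided p, adjusted over 8887 genes after Benjamini and Hochberg) in R 4.3.3, and single genes with two-sided exact permutation tests, whose smallest possible p is 0.0022. The fit was tested on simulated data. The number of libraries and their depth limit precision. P-values measure the spread between these libraries, which are 1 per mouse as far as the study states.

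The 10 members and the gene lists were chosen with earlier results of these data known. All members were named, with Fancg as a check of the labels and Zmat3 as the gene the study singled out, no independent check. Of each other pathway list, the genes with an unadjusted p under 0.05 were named or, with none, the gene with the largest difference. Of the marker lists, only genes with an unadjusted p under 0.05 were. Beyond that rule Cycs, Usp9x, Trp53, Foxo3, Fas, Bcl2l2, Kit, Ly6a, Mpo and genes listed at 0 were named after their values were seen, and the promoter motifs were chosen then too. Alternatives were other pseudocounts, filters and scalings, limma without trend, the replicate block and left-out libraries. Leaving Bcl2l11 out of the balance and the longest transcript as length were chosen after seeing the data.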

Additional observations from a re-analysis of the deposited data

Results flagged for a closer look

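Of 22 groups of 6 libraries examined (the 10 genes and the balance, per label), 1 held a library far from the other 5 by Dixon's criterion, where chance gives about 1.1. The gene was Bad, whose signal reached 21.3 in WT replicate 4, while the remaining WT libraries lay between 6.26 and 10.6.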

How the results depend on the processing

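Adjusted p stayed above 0.05 for every gene tested under all alternatives. With the same total signal per library, 241 genes had an unadjusted p under 0.05, split 191 higher and 50 lower, against 176 and 150 of 326 as deposited. The count was 836 without a filter, 91 with a mean signal of at least 50, 124 with totals equal without Lars2, and 275 to 383 when single libraries were left out in turn. Lars2 alone held 15.6% to 36.2% of the total signal of a library. Members past an unadjusted p of 0.05 numbered 1 in limma without trend (Bax, unadjusted p of 0.0391), where 3.72% of all genes passed, and 0 to 1 across the left-out libraries. Bax, Bak1, Bcl2, Bcl2l1 and Bcl2l11 kept their direction under every alternative that gave a value. Mcl1 changed sign with the same total signal (0.073), with totals equal without Lars2 (0.047) and within the left-out libraries (-0.13 to 0.11). The balance differed between labels by -0.12 to 0.058 across left-out libraries. It differed by -0.14 with mean log2 values in place of sums and by -0.16 per kilobase. The difference was 0.034 without Bcl2 and Bak1 and 0.030 without WT replicate 3 and KO replicate 7. Without Bcl2l11, a choice made after seeing the data, it was -0.32. Without WT replicate 3 and KO replicate 7, low in 4 Y-linked genes (sum 26.6 and 49.7, against 189 to 435 in the other 10), 0 members passed and Mcl1 stood at -0.18. The cause of these shifts was not tested.

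Same-numbered libraries of both labels had correlated deviations (r from 0.086 to 0.36, mean 0.20), against a mean r of -0.039 between different numbers. Not all same-number values were over 0.1, so the main fit did not take the numbers as pairs. Whether same-numbered libraries share a batch was not tested. With the replicate block 476 genes (5.36% of those tested) and 0 members passed. The unadjusted limma p of Bcl2l11 was 0.104 there, against 0.359 in the main fit, and that of Bcl2l1 0.216 against 0.190. In the neighbouring lists, with 3, 11, 5, 6 and 15 genes tested, 2 passed with the block. These were Cycs (unadjusted limma p of 0.0326) and Usp9x (0.0399), both with an adjusted p of 0.889. In the left-out libraries these lists gave 0 to 2, with Aifm1 and Htra2 without KO replicate 3, where 4.31% of all genes tested passed.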

Other observations

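Like several other members, Mcl1 differed less between libraries with the same number than between others. Its log2 signal differed by 0.18 on average between same-numbered WT and KO libraries (at most 0.41), against 0.52 between libraries of different numbers (at most 1.15). For Bcl2l11 the averages were 0.60 and 0.97, for Bcl2 0.17 and 0.27 and for Pmaip1 1.14 and 1.51. For Bax they were 0.55 and 0.66, for Bid 0.49 and 0.53 and for Bak1 0.51 and 0.52. Same-numbered libraries differed more for Bbc3 (1.58 and 1.07), Bcl2l1 (0.72 and 0.61) and Bad (0.68 and 0.55). The labels do not say what the numbers stand for. Bcl2 over Mcl1, a ratio within the pro-survival side, ran from 1.06 to 2.92 for WT and from 1.07 to 2.87 for KO.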
